A study of Mus musculus with 7 samples.

Results

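Globin and red cell genes were followed in 7 RNA sequencing libraries of mouse CD8 T cells. The set was named as 8 genes: the adult alpha globins Hba-a1 and Hba-a2, the adult beta globins Hbb-bs and Hbb-bt, and the erythroid genes Alas2, Slc4a1, Epb42 and Ahsp. Of these, 7 were found among the 16156 genes of the tables, 6 by their deposited symbol and Hbb-bs by its Ensembl identifier. Ahsp was not analysed here. The genes were picked because their levels in these libraries were already known to be uneven, so their levels are a description and carry no test.

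The cells were OT-I CD8 T cells, whose transgenic receptor recognises an ovalbumin peptide, of strain C57Bl/6. Congenically marked donor cells, either WT or ACLY KO, were put into C57Bl/6 mice 1 day ahead of an infection with Listeria monocytogenes that makes ovalbumin, and were recovered 6 days after infection. Values below are in the order of replicates 1 to 3 for KO and 1 to 4 for WT. All libraries share the receptor, the transfer and the infection; there were 3 KO and 4 WT libraries. The sources used here do not give the allele and how it was deleted, the organ the cells came from, how they were isolated or whether libraries of a genotype came from separate mice, so p-values measure only the spread between these libraries.

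Hemoglobin is a tetramer of alpha and beta globin chains, each of which holds a heme. Its genes are transcribed in erythroblasts, the nucleated precursors of red cells, which in the mouse lie in the bone marrow and in the spleen. An erythroblast loses its nucleus to become a reticulocyte, which makes no new RNA but keeps globin messenger RNA for some time. Transcription factors of the erythroblast such as Gata1 and Klf1 act at the nucleated stage, whereas globin RNA is found in erythroblasts and reticulocytes. Whether RNA of these factors remained in reticulocytes or came from other cells was not tested, so their levels do not measure erythroblasts alone. T cells do not make hemoglobin.

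Totals of gene counts were 37820986, 39692359 and 37473484 in KO replicates 1 to 3 and 45288353 to 75586011 in the WT libraries. Levels are in CPM, the count scaled to library size, with TMM correction. Acly, the deleted gene, had 62 to 262 CPM in the KO libraries against 276 to 414 CPM in the WT libraries. Its edgeR adjusted p was 0.278, and every KO library lay below every WT library, as in 9.03% of all genes. Markers of CD8 T cells (Cd3d, Cd3e, Cd3g, Cd8a and Cd8b1) were present in every library, with a sum of 1876 CPM in KO replicate 1 and 4709 to 6083 CPM in the other 6 libraries. KO replicate 1 thus stood apart from the rest. In KO replicate 3, 1097 of 16156 genes had no count, and in KO replicate 2 and WT replicate 4 637 and 653, against 20 in KO replicate 1 and 99 to 129 in WT replicates 1 to 3.

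The globin genes come as pairs with near-identical coding sequences, and the following sequences show the coding base at which each pair differs. Parts of the transcripts outside the coding bases, where the copies of a pair also differ, are not printed. Hba-a1 (chromosome 11, 32283511 to 32284465, plus strand, mm10) and Hba-a2 (chromosome 11, 32296489 to 32297298, plus strand) differ at 1 of 429 coding bases. Hbb-bs (chromosome 7, 103826534 to 103828096, minus strand) and Hbb-bt (chromosome 7, 103812524 to 103813996, minus strand) differ at 1 of 444. The windows below are taken from GENCODE M21 transcripts and span that base, which is the capital letter; positions count from 1 at the first base of the start codon.
Hba-a1, coding bases 351 to 411: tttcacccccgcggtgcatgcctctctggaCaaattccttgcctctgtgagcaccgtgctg
Hba-a2, coding bases 351 to 411: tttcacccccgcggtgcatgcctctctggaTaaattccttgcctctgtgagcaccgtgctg
Hbb-bs, coding bases 387 to 444: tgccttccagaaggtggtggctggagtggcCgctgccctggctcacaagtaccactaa
Hbb-bt, coding bases 387 to 444: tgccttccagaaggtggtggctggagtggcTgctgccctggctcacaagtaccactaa
Of all 50-base windows of the Hba-a1 transcript 67.5% also occur in Hba-a2, and of those of Hbb-bs 65.8% occur in Hbb-bt. Reads from these stretches cannot be assigned to 1 copy, and the sources used here do not say how the authors' counting treated them. The split between the copies of a pair is therefore uncertain. No 50-base window was shared between Hba-a1 and Hbb-bs, and results below rest on the sum of the 4 globins.

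The promoters of Hba-a1, Hbb-bs, Hbb-bt and Alas2 are shown because these genes put the libraries in the same order; that of Hba-a2, which nearly repeats Hba-a1, is not printed. They run from 250 bases before to 50 bases after the start site in RefSeq (GRCm38.p6), which held an entry for 6 of the 7 genes. Capitals mark AGATAA or TGATAA, the core recognised by GATA factors, CCNCNCCC, a CACC box of the kind bound by KLF factors, and TATAAA, each searched on both strands, so that the reverse complement is capitalised too.
Hba-a1, chr11:32283422-32283721, plus strand: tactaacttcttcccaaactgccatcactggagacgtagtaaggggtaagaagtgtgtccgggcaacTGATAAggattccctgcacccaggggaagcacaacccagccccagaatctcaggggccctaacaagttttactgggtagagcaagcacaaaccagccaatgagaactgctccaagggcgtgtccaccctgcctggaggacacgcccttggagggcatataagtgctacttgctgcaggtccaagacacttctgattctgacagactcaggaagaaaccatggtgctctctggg
Hbb-bs, chr7:103827879-103828178, minus strand: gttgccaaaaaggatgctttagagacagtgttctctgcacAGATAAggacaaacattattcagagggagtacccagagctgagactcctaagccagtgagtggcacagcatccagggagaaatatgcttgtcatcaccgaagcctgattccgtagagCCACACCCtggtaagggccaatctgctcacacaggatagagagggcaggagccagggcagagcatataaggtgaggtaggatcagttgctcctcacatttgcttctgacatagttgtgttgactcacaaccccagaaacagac
Hbb-bt, chr7:103813874-103814173, minus strand: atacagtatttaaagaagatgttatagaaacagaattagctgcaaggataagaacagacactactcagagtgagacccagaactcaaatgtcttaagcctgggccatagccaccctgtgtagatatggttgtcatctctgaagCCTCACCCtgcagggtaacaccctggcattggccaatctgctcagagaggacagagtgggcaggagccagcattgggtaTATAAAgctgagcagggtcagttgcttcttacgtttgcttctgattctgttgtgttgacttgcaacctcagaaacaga
Alas2, chrX:150547167-150547466, plus strand: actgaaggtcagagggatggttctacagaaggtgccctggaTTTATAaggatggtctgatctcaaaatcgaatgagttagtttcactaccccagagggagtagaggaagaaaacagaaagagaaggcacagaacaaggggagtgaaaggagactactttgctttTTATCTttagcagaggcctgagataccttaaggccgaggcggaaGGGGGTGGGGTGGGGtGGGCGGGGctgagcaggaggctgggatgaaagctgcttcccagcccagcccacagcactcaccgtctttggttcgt
AGATAA or TGATAA was found in 5 of the 6 promoters (Hba-a1, Hba-a2, Hbb-bs, Alas2 and Epb42) and in 18.6% of 32851 promoters in the RefSeq table. CCNCNCCC was found in 3 of 6 (Hbb-bs, Hbb-bt and Alas2) and in 49.5% of all promoters, and TATAAA in 3 of 6 (Hbb-bt, Alas2 and Epb42) and in 13.6%. In Alas2 several CCNCNCCC matches overlap each other in 1 guanine-rich run. CCAAT, a shorter promoter element that is not capitalised, was found in all 4 globin promoters and in 37.4% of all promoters. The promoters of Hba-a1 and Hba-a2 were 98.0% identical in a global alignment, and those of Hbb-bs and Hbb-bt 71.3%. These matches describe the letters only.

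Globin RNA was abundant in KO replicates 1 and 2, lower in WT replicate 2 and KO replicate 3, and close to nothing in WT replicates 1 and 3. Hbb-bs, the highest of the globins per kilobase of exon in each library, was at 26764, 3683 and 142 CPM across the KO libraries and at 4.12, 287, 0.979 and 23.9 CPM across the WT libraries. The highest libraries were KO replicates 1 and 2, but WT replicate 2 lay above KO replicate 3, so the genotypes overlap. By counts Hbb-bs was the gene ranked 1 in KO replicate 1 and ranked 6 in KO replicate 2, against rank 11773 in WT replicate 3. In bulk RNA, fewer cells of a type and less RNA per cell cannot be told apart.

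Hba-a1 followed the same order. It was at 9180, 1638 and 58.1 CPM across the KO libraries and at 1.31, 76.3, 0.269 and 7.58 CPM across the WT libraries. Hba-a2, its copy, was at 3503, 387 and 10.4 CPM in KO and at 0.621, 25.6, 0.0384 and 3.41 CPM in WT. Hbb-bt was at 4713, 613 and 18.7 CPM in KO and at 0.855, 53.2, 0.134 and 5.99 CPM in WT. All 4 globins put the libraries in 1 order: KO replicate 1, KO replicate 2, WT replicate 2, KO replicate 3, WT replicate 4, WT replicate 1 and WT replicate 3.

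**Figure D1:**
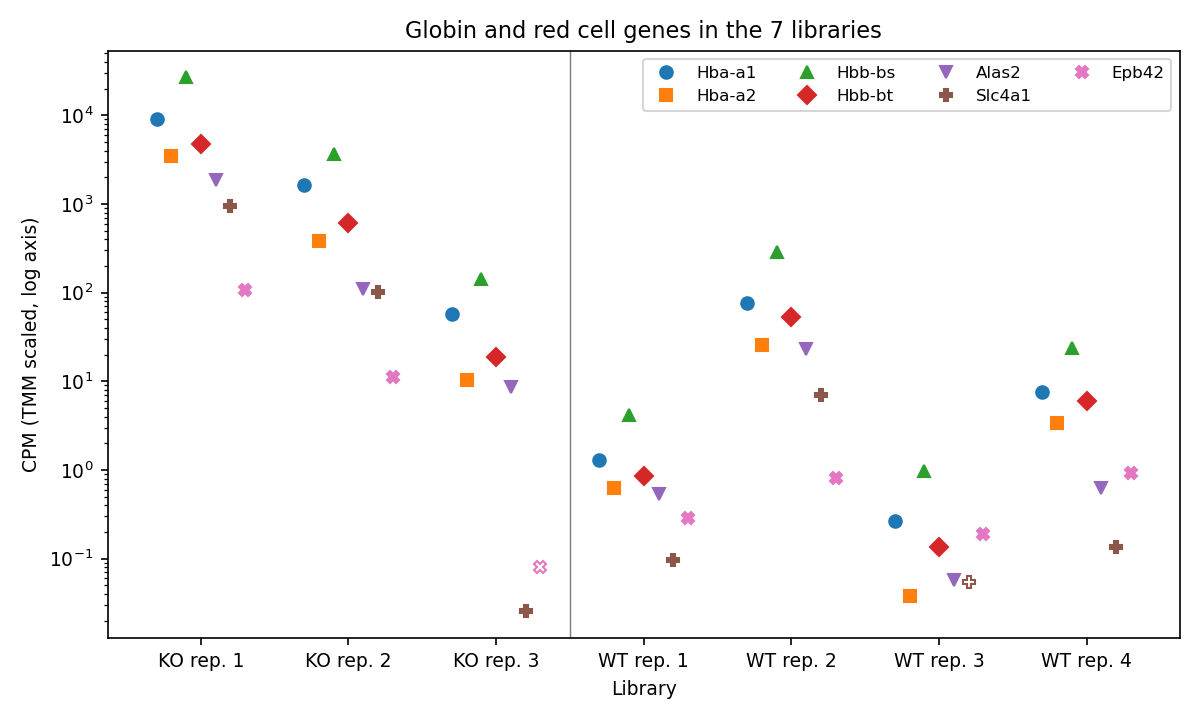
Level of the 7 measured genes in each library, in CPM on a log axis, with KO libraries on the left and WT libraries on the right. Filled symbols are single measurements, and open symbols stand at the level of 3 counts for a gene without counts (Epb42 in KO replicate 3, Slc4a1 in WT replicate 3). Globins span 26764 CPM (Hbb-bs, KO replicate 1) to 0.0384 CPM (Hba-a2, WT replicate 3), and WT replicate 2 is above KO replicate 3 for all 7 genes.

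Together the 4 globins took 4.37% of all gene counts in KO replicate 1 (95% exact Clopper-Pearson interval 4.36 to 4.38). The share was 0.684% in KO replicate 2 (0.682 to 0.687) but 0.0239% in KO replicate 3 (0.0234 to 0.0244). WT replicate 2 held 0.0435% (0.0429 to 0.0441) and WT replicate 4 0.00407% (0.00391 to 0.00423). WT replicate 1 held 0.000663% (0.000606 to 0.000723) and WT replicate 3 0.000135% (0.000106 to 0.00017), which was 74 globin counts. No interval overlapped another, but the intervals cover counting error only, and reads without molecular identifiers are not independent molecules. KO libraries averaged 1.69% ± 2.34 (SD, n = 3) and WT libraries 0.0121% ± 0.021 (SD, n = 4), and the gap of 1.68 percentage points was smaller than the SD of the KO libraries. Without KO replicate 1 the difference was 0.342 percentage points.

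The balance of the globin chains varied far less than their amount. Beta globin counts were 2.48, 2.12 and 2.35 per alpha globin count across the KO libraries and 2.58, 3.33, 3.62 and 2.72 across the WT libraries, the value of WT replicate 3 resting on 58 and 16 counts. Within the beta pair 11.7% to 20% of counts went to Hbb-bt, and within the alpha pair 12.5% to 32.1% went to Hba-a2. Of the other globins, Hbq1b, a theta globin of the alpha cluster, was the 1 measured of 9 listed. It was at 23.4, 3.75 and 0 CPM in KO and at 0, 0.247, 0 and 0.17 CPM in WT, again with KO replicate 1 highest. The other 8 names on that list, which holds the embryonic globins, were not analysed here.

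Alas2, the enzyme that starts heme synthesis in erythroid cells (chromosome X, 150547375 to 150570638, plus strand), was at 1856, 109 and 8.73 CPM across the KO libraries. The WT libraries had it at 0.538, 23, 0.0576 and 0.627 CPM, so it ordered the libraries as the globins did. Its exons overlap those of Apex2 on the other strand, and the sources used here do not give the strand setting of the counts. In WT replicate 3, where Apex2 was at 14.4 CPM, Alas2 had 3 counts. Per kilobase of exon Alas2 was at 772 CPM in KO replicate 1, below the 5252 to 34849 CPM per kilobase of the globins in that library.

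Slc4a1, or band 3, the anion exchanger of the red cell membrane (chromosome 11, 102348824 to 102366203, minus strand), was at 946, 101 and 0.0256 CPM across the KO libraries. The WT libraries had it at 0.0965, 7, 0 and 0.136 CPM. KO replicate 3 had 1 count, although its globin share was the fourth highest of the 7 libraries. WT replicate 3 had none, which allows up to 0.0549 CPM before TMM scaling (3 counts). Epb42, or protein 4.2, which ties band 3 to the membrane skeleton (chromosome 2, 121017891 to 121037072, minus strand), was at 106, 11.1 and 0 CPM in KO and at 0.29, 0.808, 0.192 and 0.933 CPM in WT. Its level in WT replicates 1 and 3 (21 and 10 counts) was near that in WT replicate 2 (36 counts), whereas globin counts in these 3 libraries were 501, 74 and 19701, so at these levels Epb42 counts did not follow globin.

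A ratio of counts within a library does not depend on scaling, and it sets the other erythroid genes against the globins. Whether this ratio tells erythroblasts from reticulocytes was not tested. Alas2 had 42.0, 17.2 and 38.1 counts per 1000 globin counts in KO replicates 1 to 3 (exact intervals 41.7 to 42.3, 16.7 to 17.7 and 34.1 to 42.4). In WT replicates 1 to 4 it had 77.8 (54.7 to 108), 52.0 (48.8 to 55.4), 40.5 (8.17 to 123) and 15.4 (10.8 to 21.2). The ratio thus stayed between 15.4 and 77.8 in all 7 libraries while globin counts went from 74 to 1652581. Its median was 40.5 as counted and 12.9 with counts taken per kilobase of exon.

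Slc4a1 kept its ratio to globin in some libraries and not in others. It had 21.4 counts per 1000 globin counts in KO replicate 1 (21.2 to 21.7), 16.0 in KO replicate 2 (15.5 to 16.5) and 15.8 in WT replicate 2 (14.1 to 17.7). WT replicate 1, with 7 counts, had 14.0 (5.59 to 29), and WT replicate 3 had no count, with an upper limit of 51.1. In WT replicate 4 it had 3.32 (1.43 to 6.55), and in KO replicate 3 0.112 (0.00283 to 0.623). At the ratio of KO replicate 1, the globin counts of KO replicate 3 would go with 192 counts of Slc4a1 and 376 of Alas2, against 1 and 341 counted. Those of WT replicate 4 would go with 51.6 and 101, against 8 and 37 counted.

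**Figure D2:**
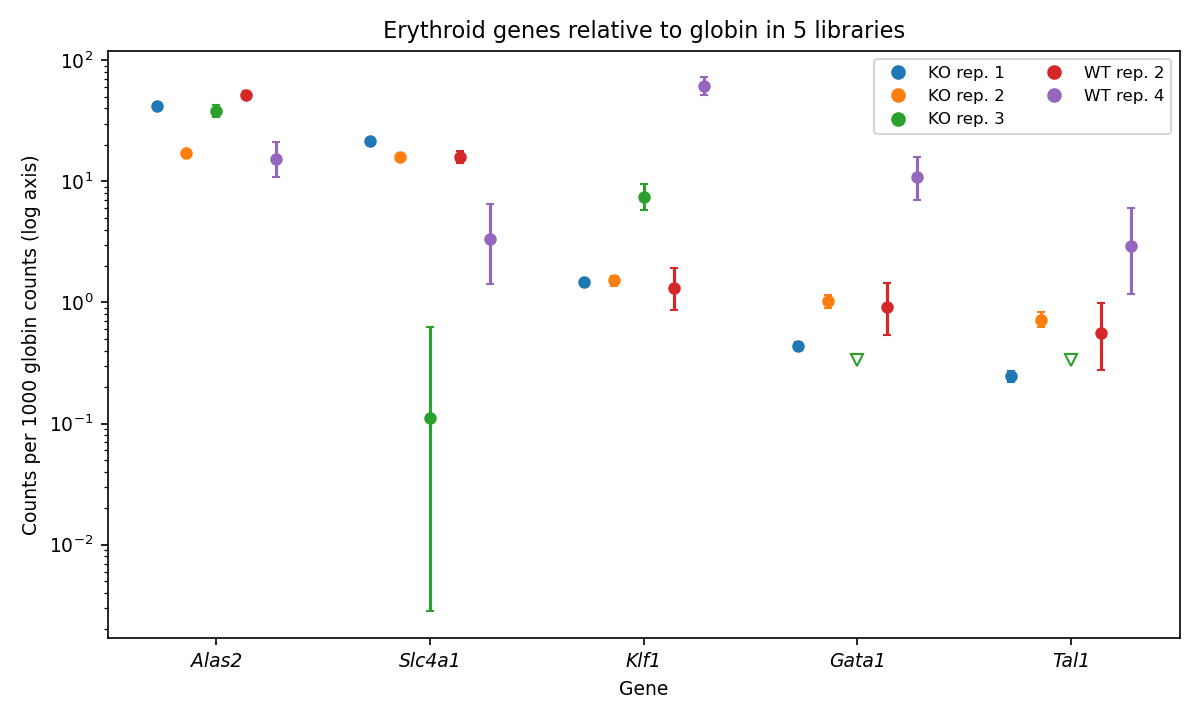
Counts of Alas2, Slc4a1, Klf1, Gata1 and Tal1 per 1000 globin counts, on a log axis, in the 5 libraries with at least 2410 globin counts. Points are single libraries, bars are 95% exact binomial intervals, and open triangles mark the level of 3 counts for a gene without counts. KO replicates 1 and 2 and WT replicate 2 stay close together for Slc4a1 (16.0 to 21.4 in KO, 15.8 in WT), while KO replicate 3 is at 0.112.

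Among 24 further red cell genes, those of the lists below with less than 1 CPM in WT replicate 3, the library with the lowest globin share, none was at 0 counts in KO replicates 1 and 2 or WT replicate 2. In KO replicate 3, 14 of the 24 were at 0, in WT replicate 4 9, in WT replicate 3 7 and in WT replicate 1 5. At the ratio of KO replicate 1, 19 of them would have had 3 counts or more in KO replicate 3, and 11 of these 19 were at 0. In WT replicate 4 that was 5 of 13, and in WT replicate 2 0 of 21. The sum over the 24 genes went the other way. It was 1186 counts in KO replicate 3 against 488 at the ratio of KO replicate 1, and 867 against 131 in WT replicate 4, while WT replicate 2 had 1009 against 1073. In KO replicate 3 a few genes held most of that sum, among them Lmo2 with 386 counts against 42.7 and Gata2 with 205 against 0.834, and 17 of the 24 lay below the ratio. KO replicate 3 thus lacked some red cell genes and held others in excess of its globin. Beside this, 6.79% of all genes were at 0 in KO replicate 3, 4.04% in WT replicate 4 and 3.94% in KO replicate 2. Yet in KO replicate 2 none of the 24 was at 0. The share of all genes at 0 was 0.65%, 0.613% and 0.798% in WT replicates 1 to 3 and 0.124% in KO replicate 1. The part of sparse libraries in the missing genes was not tested. The limit of 1 CPM was chosen after seeing the data.

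KO replicates 1 and 2 differed in the make-up of their red cell RNA, too. In CPM, Hbb-bs was 7.27 times as high in KO replicate 1 as in KO replicate 2 and Slc4a1 9.35 times. Alas2 was 17 times as high, and Bpgm, the enzyme that makes the hemoglobin regulator bisphosphoglycerate, 17.9 times. The 12 transcription factors of the list had no common ratio. Gata1, Tal1, Gfi1b and Zfpm1 were 2.99, 2.38, 3.29 and 3.54 times as high, Klf1 and Gata2 6.78 and 7.37 times, and Bcl11a, Lmo2 and Nfe2 15.9, 16.7 and 17.5 times. Klf3, Ldb1 and Myb were lower in KO replicate 1, at 0.787, 0.822 and 0.522 times the level of KO replicate 2. Relative to globin, Gata1 had 0.439 counts per 1000 in KO replicate 1 (0.407 to 0.472) against 1.02 for KO replicate 2 (0.907 to 1.15), and Tal1 had 0.246 (0.222 to 0.271) and 0.722 (0.624 to 0.83). With 1 library each, these intervals cover counting error only, and the genes were chosen after their values were seen.

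The wider red cell programme was read from 7 lists, without the 7 genes above, as far as their genes were measured. Of 77 listed genes 62 were measured; 59 had a log2 difference of KO minus WT above 0 and 3 below, with a median of 2.44, where the median of all 16156 genes was 0 (8077 above and 8079 below). No gene of the lists passed edgeR's quasi-likelihood test at an adjusted p under 0.05, and of all genes 0.00% were called higher and 0.00% lower. At an unadjusted p under 0.05 it counted 36 of the 62 as higher and 0 as lower, where the background was 11.0% higher and 7.89% lower. DESeq2 called 23 of the 62 higher and 0 lower, and gave no adjusted p to 4 of the 62. Of all genes to which it gave an adjusted p, it called 6.81% higher and 3.43% lower. Limma voom with quality weights called 5.32% and 1.68% of all genes. In 13 of the 62 the KO libraries all lay above the WT libraries, and in 0 all below, against 9.46% and 9.03% of all genes. The median rested on KO replicate 1, without which it was 0.89. B cell marker sums of 616 to 8696 CPM in KO against 236 to 679 CPM in WT stand beside these counts, as do macrophage marker sums of 66.5 to 1530 against 17.3 to 39.9 CPM; their part in the differences was not tested.

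Transcription factors of erythroblasts fell into those present in every library and those nearly absent from most. Klf3, Ldb1 and Zfpm1, the most abundant of the list and present in every library, had log2 differences of -0.14 ± 0.18, -0.06 ± 0.23 and -0.64 ± 0.66 (SE). Klf1, the activator of beta globin, was at 65, 9.59 and 1.71 CPM across the KO libraries and at 0.207, 0.583, 0.307 and 2.49 CPM across the WT libraries. WT replicate 4 lay above KO replicate 3, so Klf1 did not follow globin in every library. Per 1000 globin counts Klf1 had 1.47, 1.52 and 1.32 counts in KO replicates 1 and 2 and WT replicate 2, 7.48 in KO replicate 3 (5.8 to 9.51), and 29.9, 216 and 61 in WT replicates 1, 3 and 4. Gata1, the master regulator of the lineage, was at 19.4, 6.47 and 0 CPM in KO and at 0.069, 0.404, 0.192 and 0.441 CPM in WT. Of the 12 factors 9 were above 0 and 3 below (median 3.62). At an unadjusted p under 0.05 edgeR counted 6 of them as higher, against 11.0% of all genes. Lmo2 and Bcl11a, which B cells also express and which were chosen after their values were seen, were at 211 and 151 CPM in KO replicate 1, the library with the highest B cell marker sum.

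Heme synthesis genes other than Alas2 were highest in KO replicate 1 for each gene named here. All 7 measured enzymes were above 0, with a median log2 difference of 0.50. Fech, ferrochelatase, which inserts the iron, was at 971, 81.2 and 83.8 CPM across the KO libraries and at 55.4, 55.3, 60.3 and 30.4 CPM across the WT libraries. The log2 difference was 2.91 ± 0.88 (SE; edgeR adjusted p = 0.147). Urod and Ppox, enzymes in the middle and near the end of the pathway, were at 130 and 134 CPM in KO replicate 1 and at 64.4 to 70.1 and 45.2 to 73.8 CPM in the other 6 libraries. Exons of Ppox overlap those of B4galt3 on the other strand.

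Membrane and skeleton genes held some of the widest gaps. All 13 measured were above 0 (median 6.40), where 8077 of all 16156 genes were. At an unadjusted p under 0.05 edgeR counted 11 of them as higher, against 11.0% of all genes. None had an adjusted p under 0.05. In KO replicate 3, 8 of the 13 were at 0 counts, against 6.79% of all genes. Epb41, protein 4.1, and Mpp1, a palmitoylated scaffold protein, were present in all 7 libraries. Epb41 was at 1011, 265 and 244 CPM in KO and at 207 to 344 CPM in WT, and Mpp1 at 200, 80.3 and 80.7 CPM in KO and at 38.5 to 46.3 CPM in WT. Both overlap exons of genes on the other strand.

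Iron and erythropoietin genes had a median log2 difference of 1.39, with 11 of 11 above 0. Fth1 and Ftl1, the ferritin chains that store iron, were at 1348 ± 344 and 199 ± 67.6 CPM for KO (SD, n = 3). WT had them at 798 ± 65.9 and 104 ± 8.78 CPM (SD, n = 4). For both, every KO library lay above every WT library, as in 9.46% of all genes. Neither passed (edgeR adjusted p = 0.109 and 0.0911). Slc11a2, an iron transporter, was at 76.5 ± 18.1 CPM for KO against 75.9 ± 9.79 for WT. Slc25a37, mitoferrin, which brings iron into mitochondria for heme, was at 388, 57.8 and 17.9 CPM in KO and at 12.5 to 15.6 CPM in WT.

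Red cell enzymes and genes of terminal maturation were highest in KO replicate 1 for each gene named here. Bpgm was at 1373, 76.6 and 25.6 CPM in KO and at 18.3, 37.7, 21.8 and 22.4 CPM in WT, so that WT replicate 2 was above KO replicate 3. Gpx1, a glutathione peroxidase that many cell types make, was at 2267, 629 and 321 CPM in KO and at 183 to 224 CPM in WT (log2 2.44 ± 0.59, SE; edgeR adjusted p = 0.0973). Cat, catalase, was at 396, 126 and 174 CPM in KO and 136 to 203 CPM in WT. The enzyme list had 8 of 8 genes above 0 (median 2.44), and the maturation list 10 of 10 (median 2.80). Mkrn1, a ubiquitin ligase, was at 1289, 258 and 223 CPM in KO and at 204 to 231 CPM in WT. Bnip3l, which clears mitochondria from reticulocytes, was at 400, 137 and 141 CPM in KO and at 137 to 193 CPM in WT, and Xpo7, an exportin of erythroid maturation, at 374, 130 and 106 against 107 to 157 CPM.

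**Figure D3:**
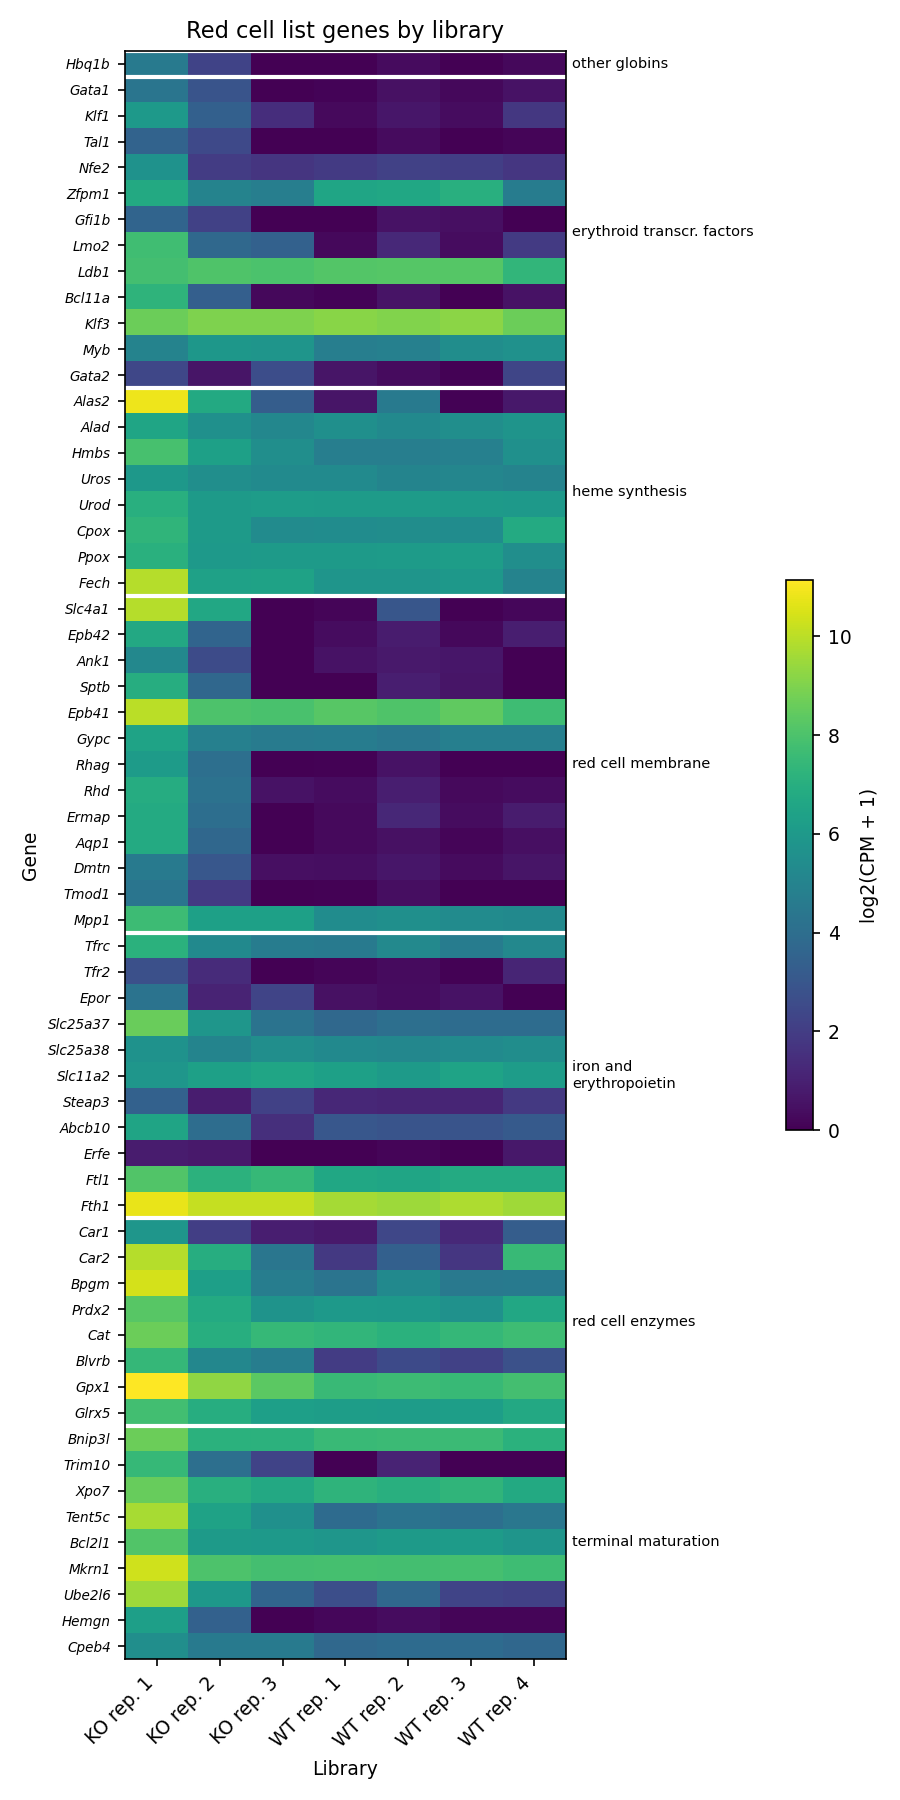
Heat map of log2(CPM + 1) of red cell genes (vertical axis, grouped by list; Alas2, Slc4a1 and Epb42 stand in their lists) in the 7 libraries (columns). Alas2 and Slc4a1 are bright in KO replicate 1, weaker in KO replicate 2 and faint in WT replicate 2. Other red cell genes do not share this order, and Klf1, Lmo2 and Trim10 are lower in WT replicate 2 than in KO replicate 3. Genes such as Klf3 or Fth1 are bright in every library.

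**Figure D4:**
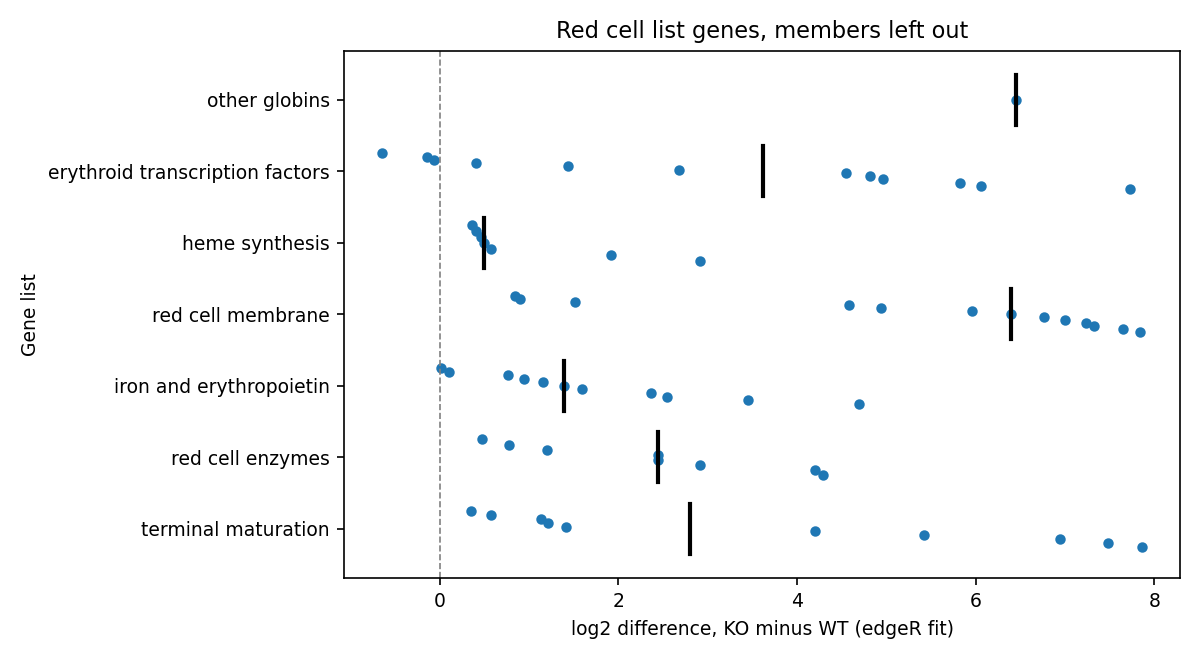
Log2 difference of KO minus WT from the edgeR fit (horizontal axis) for the 62 list genes, 1 point a gene, with the list median as a black bar. Medians run from 0.50 (heme synthesis) to 6.40 (red cell membrane) among the lists with more than 1 gene, and the median of all genes was 0.

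In the same fit the 7 genes had log2 differences of 6.14 to 7.63 with standard errors of 1.90 to 2.68. Hbb-bs was at 10196 ± 14457 CPM for KO (SD, n = 3) and 79.0 ± 139 CPM for WT (SD, n = 4), so that in each genotype the SD exceeded the mean. In 0 of the 7 genes were all KO libraries above all WT libraries, against 9.46% of all genes, since WT replicate 2 was above KO replicate 3 in all 7. For Hbb-bs the log2 difference was 7.01, 4.60 without KO replicate 1 and 10.04 without WT replicate 2.

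Marker sums of macrophages, B cells and CD8 T cells did not put the libraries in the order of globin. Those of platelets and neutrophils, which were highest in KO replicates 1 and 2, are given under other observations. The sum of 10 markers of macrophages, among them Vcam1, Slc40a1 and Hmox1 of the macrophages that take up red cells, was at 778, 66.5 and 1530 CPM across the KO libraries, and at 17.3, 27.5, 39.9 and 23 CPM across the WT libraries. It was thus highest in KO replicate 3, where Slc4a1 had 1 count. Of this list Vcam1 was at 126, 12.5 and 309 CPM and Slc40a1, the iron exporter ferroportin, at 149, 5.19 and 234 CPM in KO. The 6 B cell markers summed to 8696, 1116 and 616 CPM in KO and to 314, 236, 343 and 679 CPM in WT, so WT replicate 2, the WT library with the most globin, had the lowest B cell sum. Ighm, the mu heavy chain, made up much of it, with 224 to 664 CPM in WT, and Ighd was at 0.653 to 6.61 CPM. Cd8b1 and Cd3e were at 566 and 453 CPM in KO replicate 1, and at 1447 to 2449 and 882 to 1162 CPM in the other 6 libraries.

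**Figure D5:**
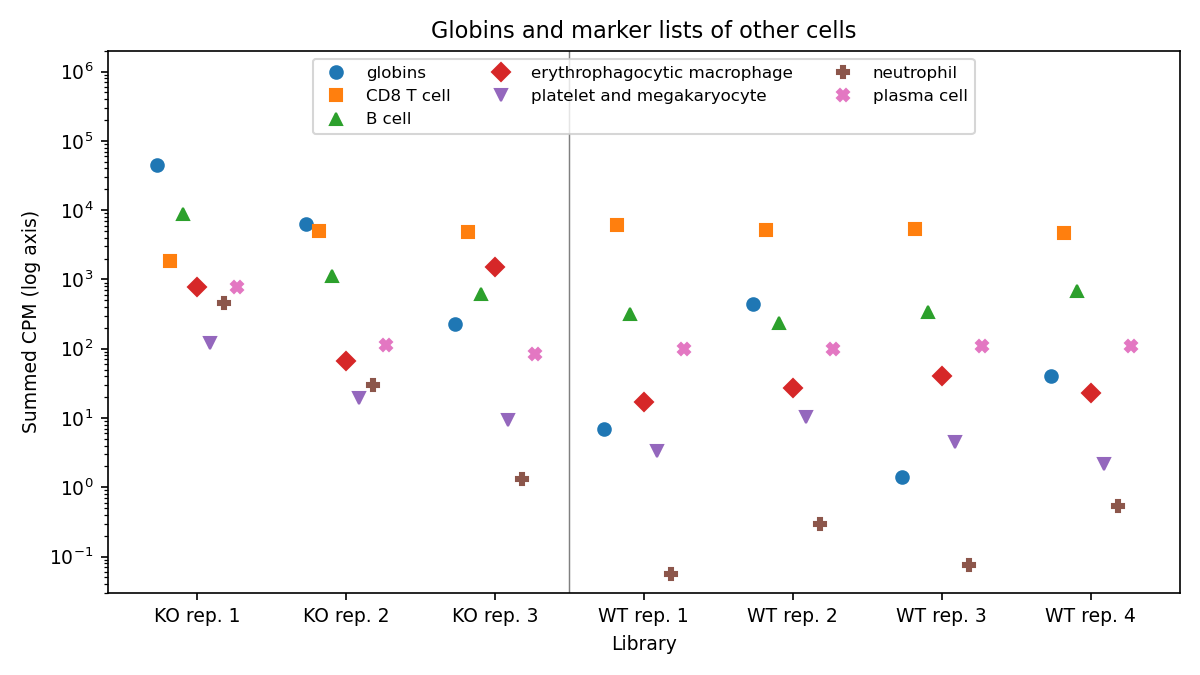
Summed CPM, on a log axis, of the 4 globins and of marker lists of 6 other cell types in each library. The globin sum goes from 44160 CPM (KO replicate 1) to 1.42 CPM (WT replicate 3), while macrophage markers are highest in KO replicate 3 (1530 CPM) and CD8 T cell markers lowest in KO replicate 1 (1876 CPM); levels of different lists are not compared, since genes differ in length.

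The genes whose pattern was most like that of the globins were sought by Pearson correlation of log2 CPM with the mean of the 4 globins over the 7 libraries, among 12042 genes with a mean log2 CPM of at least 0. The highest were Dnajc4 (r = 0.970), Apol11b (0.967), Tspan33 (0.961), Prpsap2 (0.955), Marchf8 (0.955), 1700029J07Rik (0.945), Ly6d (0.943) and Bcas3os1 (0.942). With 7 libraries that differ in depth and cell content this is a description. Of these, Apol11b was at 571, 73.6 and 2.76 CPM in KO and at 0.0414, 5.21, 0 and 0.017 CPM in WT. Tspan33, a tetraspanin, was at 102, 16.5 and 0.563 CPM and at 0.124, 1.26, 0.0384 and 1.61 CPM, and Dnajc4 only went from 12.7 to 19.4 CPM over all libraries. Among the 7 genes themselves, Alas2 correlated with the globin mean at 0.986, Slc4a1 at 0.918 and Epb42 at 0.778.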

How the data were processed

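Total RNA of 7 libraries of mouse CD8 T cells (3 KO, 4 WT) was sequenced. Trim Galore 0.6.0, STAR 2.7.8 and DESeq2, with genome build mm10, are named in the submitters' processing notes. The sources used here do not give the counter, its strand setting, the annotation or a filter. The authors deposited raw counts of 16156 genes and log2 CPM of the same genes. These log2 values equalled edgeR's log2 CPM (TMM, prior count 2) within 4.99e-09. Symbols were the deposited ones for 13346 genes and came from GENCODE M21 (GRCm38) for 2797. Coordinates and exon lengths were from the same annotation.

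CPM was computed from the counts with TMM. KO was compared with WT by edgeR 4.0.16 (quasi-likelihood, genotype only, R 4.3.3) with Benjamini-Hochberg adjustment over all 16156 genes and 0.05 as threshold. No gene fell to filterByExpr. Standard errors are from that fit. Alternatives were other scalings, filters, DESeq2 1.42.0, limma 3.58.1 (voom), the replicate number as a block and leaving out each library; the script was tested on simulated data. Intervals are 95% exact ones. The red cell genes, lists, markers and motifs were chosen with earlier results of these data known. Named were the 7 genes, the 3 most abundant others of each red cell list, 2 of each marker list and the 8 genes most like the globins; every other gene named with its values, such as Gata1, Klf1 and Slc25a37, was chosen after its values were seen. Some list genes are counted but not reported here by name.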

Additional observations from a re-analysis of the deposited data

Results flagged for a closer look

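For 6 of the 7 genes the gap between WT replicate 2 and the next WT library took up more of the range of the 4 WT libraries than Dixon's 95% limit. Hbb-bs was at 287 CPM there against 0.979 to 23.9 CPM in the others, Hba-a1 at 76.3 against 0.269 to 7.58, Hba-a2 at 25.6 against 0.0384 to 3.41 and Hbb-bt at 53.2 against 0.134 to 5.99. Alas2 was at 23 CPM against 0.0576 to 0.627, and Slc4a1 at 7 CPM against 0 to 0.136. The globin share of counts was 0.0435% against 0.000135% to 0.00407%. The genes were picked for uneven levels and do not vary independently, so the usual chance rate of 1 in 20 groups does not apply, and these values are a description, not a test. The share of all genes that pass this limit is not given here, so the count of 6 has no background beside it. The KO group, with 3 libraries, was not examined this way.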

How the results depend on the processing

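With edgeR 0 genes were called higher and 0 lower, also under median-of-ratios and upper-quartile scaling, TMM without the globin counts, no filter, a mean count of 10 and without KO replicate 1 and WT replicate 2 together, a choice made after seeing the data. Under DESeq2 there were 1032 higher and 520 lower, and under limma voom with quality weights 860 and 272. Leaving out 1 library gave 0 to 142 higher and 0 to 48 lower: 111 and 48 without KO replicate 1, 118 and 2 without KO replicate 2, 142 and 47 without KO replicate 3, then 108 and 21 once WT replicate 4 was left out. The cause was not tested. The median of the red cell lists was 0.89 to 2.96 with 1 library left out (0.89 without KO replicate 1) and 0.62 without KO replicate 1 and WT replicate 2 together. Without WT replicate 2 the log2 difference of Alas2 was 10.62. Leaving out 1 library moved the globin share difference between 0.342 and 2.51 percentage points and the median of Alas2 per 1000 globin counts between 39.3 and 41.3; per kilobase of exon that median was 12.9, as lengths enter the ratio. All 7 genes had a positive difference in each fit that gave one; Slc4a1 fell under the count filter without WT replicate 2, alone or with KO replicate 1. With the replicate block, in which WT replicate 4 has no partner, 0 genes were called and the list median was 1.90. Same-numbered libraries deviated together by r = -0.108, -0.051 and 0.137, and differently numbered ones by -0.088 to 0.099. So few values cannot decide whether the numbers pair the libraries. Depth limits the ratios in WT replicates 1 and 3, with 501 and 74 globin counts.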

Other observations

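Neutrophil and platelet transcripts were also highest in the library with the most globin. The neutrophil genes S100a8 and Ngp, an alarmin subunit and a granule protein, were at 164 and 145 CPM in KO replicate 1, at 12.2 and 8.78 CPM in KO replicate 2, at 0.358 and 0.947 CPM in KO replicate 3 and at or below 0.224 CPM in WT. The sum of the 3 measured neutrophil markers was 450, 29.7 and 1.3 CPM in KO and 0.0552 to 0.543 CPM in WT. The 6 measured markers of platelets and megakaryocytes summed to 120, 19.6 and 9.31 CPM in KO and to 3.31, 10.4, 4.47 and 2.15 CPM across the WT libraries. WT replicate 2, the WT library with the most globin, was thus also the highest WT library for platelet markers, and above KO replicate 3. Of these Itga2b, an integrin of platelets, was at 41.7, 5.24 and 1.1 CPM in KO and at 1.46, 4.11, 2.04 and 1.59 CPM in WT, and Ppbp, a platelet chemokine, at 40.5, 6.59 and 4.02 CPM and at 1.27, 3.19, 1.42 and 0 CPM.

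Jchain, the joining chain of secreted antibodies, was at 530, 23.4 and 0 CPM across the KO libraries and at 0.897, 9.62, 5.2 and 0 CPM across the WT libraries, whereas Xbp1, a factor of secretory cells, was at 85.3 to 241 CPM over all libraries. Car2, a carbonic anhydrase of red cells, was at 181 CPM in WT replicate 4 against 2.4 to 9.8 CPM in the other WT libraries, although WT replicate 4 held less globin than WT replicate 2; it was chosen after its values were seen.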
